A study of Mus musculus with 23 samples.

Results

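The genes described here are 9 transcripts of acute-phase proteins and metal-binding proteins in mouse pancreas: the metallothioneins *Mt1* and *Mt2*, the iron and copper genes *Hamp2*, *Cp* and *Steap4*, and the acute-phase genes *Hp*, *Orm1*, *Saa3* and *Lcn2*. They were taken by symbol from the 18512 gene symbols in the files, with the Reg family left out, and all 9 symbols were present. Of these, 6 passed the filter on low counts used for the comparison of time points, and *Lcn2*, *Saa3* and *Orm1* did not.

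The acute-phase response is the rise of a set of secreted proteins that follows tissue injury or infection. The liver makes most of them under cytokines such as IL-6 and IL-1, and other tissues, including the pancreas, can make some of them locally. Metallothioneins are small cysteine-rich proteins that bind zinc and copper in the cytosol, and pancreatic acinar cells, which carry much zinc, are a known site of their synthesis. Hepcidin, ceruloplasmin and the Steap reductases act on iron and copper as these metals cross membranes and circulate.

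The question was how these genes stood in the pancreas 7 and 14 days after caerulein, when the gland was recovering. Caerulein is a cholecystokinin analogue that overstimulates acinar cells and causes acute pancreatitis. C57BL/6 mice of both sexes, 6 to 8 weeks old, received 8 hourly injections of 50 µg/kg on each of 2 days, and RNA was taken from the head of the pancreas. There were 8 uninjured baseline mice (4 females, 4 males), 8 mice at day 7 (4 females, 4 males) and 7 mice at day 14 (3 females, 4 males); each library came from 1 mouse, so the p-values measure the spread between mice. The baseline group was labelled only as uninjured, and no label gave it a vehicle. The tissue was not sorted into cell types.

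Libraries held 7059890 to 9567446 counts, and 3 counts, taken as the smallest detectable amount, equalled 0.224 to 0.522 CPM (counts scaled to library size, with TMM factors) depending on the mouse. Acinar transcripts were abundant: 12 acinar genes summed to a median of 537433 CPM at baseline. With TMM factors in the scaling, this value is not a share of the library. The 12 genes held 3395223 of 7059890 counts in baseline mouse 8 and 4172702 of 8868360 in baseline mouse 5. The 5 markers of duodenal epithelium that the files held summed to 0.652 to 2.79 CPM over all mice. Day 14 mice 19 and 21 stood apart. Albumin (*Alb*), the main liver plasma protein, had 3421 and 230 counts in them against 4 to 28 in the other 21 mice, and the urea cycle gene *Cps1* had 477 and 41 counts against 0 or 1. The day 14 changes of the 6 tested genes are also given without them.

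Per kilobase of exon, the order of the median levels at baseline was *Mt1* (234 CPM per kb), *Mt2* (121), *Hamp2* (73.3), *Cp* (2.86), *Steap4* (2.22), *Hp* (2.06), *Lcn2* (0.0859), *Orm1* (0.0794) and *Saa3* (0.0236). The ranges of neighbours overlapped at every step except that from *Hamp2* to *Cp*: the lowest baseline *Hamp2* level was 59.3 CPM per kb and the highest *Cp* level was 3.52 CPM per kb. On this per-length scale the genes fell into a higher group of *Mt1*, *Mt2* and *Hamp2* and a lower group, some of it barely detected. The place of *Cp* depends on the length used: it was divided by 9566 exon bases and *Hamp2* by 583. Before that division their baseline medians were 27.4 and 42.8 CPM.

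**Figure D1:**
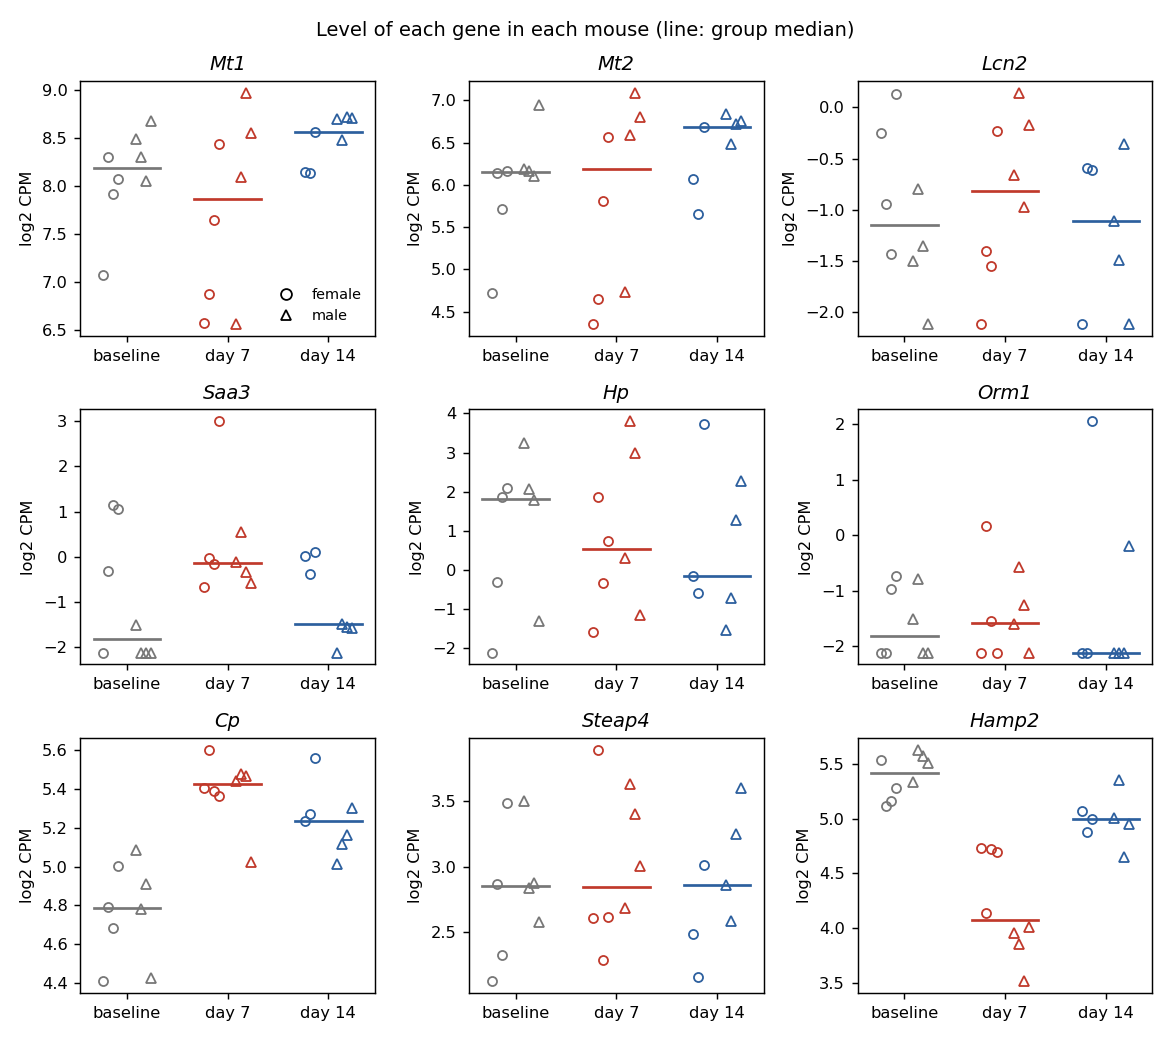
Level of each of the 9 genes in each of the 23 mice, in log2 CPM with a prior count of 2, at baseline, day 7 and day 14; circles are females, triangles are males and lines are group medians. *Hamp2* was lower in all 8 day 7 mice than in any baseline mouse, *Cp* was higher in 7 of 8, and the groups overlapped widely for the other genes.

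At day 7 against baseline, 2 of the 6 tested genes were called, *Cp* as higher and *Hamp2* as lower. A gene was called at an adjusted p of at most 0.05 in edgeR's quasi-likelihood test and a change of at least 1.5-fold. Of all 12195 genes tested, 5.13% were called in this comparison, 3.82% as higher and 1.31% as lower. At day 14 against baseline none of the 6 was called, with 0.787% of all genes called. Of the 6, *Cp* alone passed the adjusted p without the fold limit, as 1.57% of all genes did, *Cp* and *Hamp2* had an unadjusted p under 0.05 in edgeR, as 13.3% of all genes did, and DESeq2 also called 0. Between day 14 and day 7, *Hamp2* alone was called, against 0.377% of all genes. The comparisons of day 7 and day 14 share the same baseline mice and are set side by side without a measure of their likeness.

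**Figure D2:**
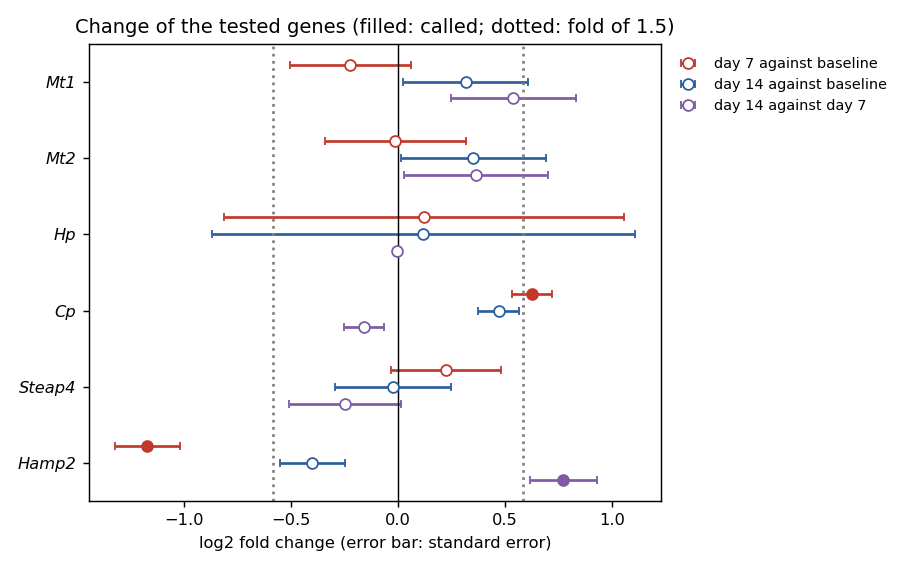
Log2 fold changes of the 6 tested genes in the 3 comparisons, with bars of 1 standard error derived from the edgeR test; filled points were called, and dotted lines mark a 1.5-fold change. *Hamp2* at day 7 (-1.17), *Cp* at day 7 (0.63) and *Hamp2* between day 14 and day 7 (0.77) were called, and no bar could be derived for *Hp* between day 14 and day 7, where the change was close to 0.

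*Hamp2* fell at day 7 and rose again by day 14. It encodes a second mouse hepcidin, a paralogue of the liver hormone gene *Hamp* that restricts iron export through ferroportin; the role of *Hamp2* itself is less settled. The gene lies at chr7:30922372-30924681 on the minus strand (GRCm38), 17686 bases from *Hamp*, and 97.4% of the 75-base stretches of its exons occur in no other annotated gene, the rest being shared with *Hamp*. *Hamp* had 0 to 2 counts in 22 of the 23 mice and 17 in day 14 mouse 19, so few reads were there to be shared. The non-coding gene *Gm44662* overlaps *Hamp2* on the other strand.

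Normalised *Hamp2* levels were 34.6, 42.8 and 49.4 CPM at baseline (lowest, median and highest of 8 mice). At day 7 they were 11.2, 16.6 and 26.3 CPM (n = 8), and at day 14 they were 24.9, 31.7 and 40.6 CPM (n = 7). On this TMM scale the highest day 7 mouse was below the lowest baseline mouse, a separation toward lower values seen in 1.59% of all genes tested. Also on it, 6 of 7 day 14 mice were above every day 7 mouse. Counts before scaling overlapped, with 239 to 326 at baseline and 120 to 260 at day 7. The log2 fold change was -1.17 at day 7 (SE 0.15, adjusted p = 1.70e-05 in edgeR) and -0.40 at day 14 (SE 0.15, adjusted p = 0.23), and it was 0.77 between day 14 and day 7 (SE 0.16, adjusted p = 0.0125). Without mice 19 and 21 the last 2 values were -0.38 (adjusted p = 0.452) and 0.79 (adjusted p = 0.0345). Scaling by total counts alone, which moved the median of all genes by -0.24 in that comparison, gave 0.54 (adjusted p = 0.00558), under the 1.5-fold limit. At day 7 against baseline, total count scaling gave -0.73 (adjusted p = 3.18e-05 in edgeR), or -1.20 relative to the median of all genes.

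The fall at day 7 was deeper in males than in females by point estimate. The 4 day 7 females had 26.3, 17.4, 26.3 and 25.6 CPM, against 34.6 to 46.2 CPM in baseline females. The 4 day 7 males had 15.2, 14.3, 11.2 and 15.8 CPM, against 40.1 to 49.4 CPM in baseline males. Every day 7 male was below every day 7 female, as in 1.8% of the 12933 genes tested by sex and time. In a fit of the 6 groups of sex and time, the log2 fold change was -0.71 in females (SE 0.14, adjusted p = 0.00637) and -1.69 in males (SE 0.15, adjusted p = 2.89e-07), changes that were called in 1.89% and 4.12% of all genes. The difference between the sexes in that change was -0.99 (SE 0.21, adjusted p = 0.0923 in edgeR) and was not called; of all genes tested for it, 0.00773% (1 gene) were called. Leaving out each mouse in turn gave adjusted p-values from 0.0215 to 0.267, and the difference was called only without day 7 mouse 10, a female, at -1.13. At day 14 the difference was -0.22 (adjusted p close to 1), and females alone gave a *Hamp2* change of 0.40 between day 14 and day 7 (adjusted p = 0.61).

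**Figure D3:**
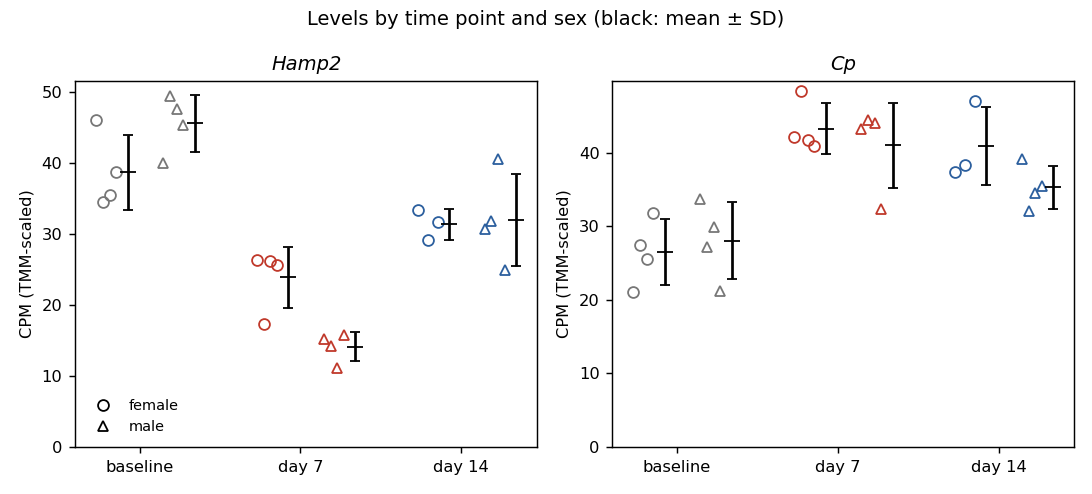
Normalised levels of *Hamp2* and *Cp* (CPM, linear axis from 0) in each mouse by time point and sex, with the mean and SD of each group in black. The 4 day 7 males lie between 11.2 and 15.8 CPM of *Hamp2*, below the 4 day 7 females at 17.4 to 26.3 CPM, while the sexes overlap for *Cp* at every time point.

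The genes whose levels followed *Hamp2* most closely over the 23 mice were *Sycn* (syncollin, a zymogen granule protein; Pearson r = 0.92), *Padi2* (a peptidylarginine deiminase; r = 0.92) and *Rn45s* (the ribosomal RNA precursor; r = 0.91). With the group means removed these were 0.69, 0.81 and 0.69. Of 12 acinar markers, 8 were called as lower at day 7. The median of the 12 was -0.72 on the log2 scale, against 0.02 over all genes. Their summed level had medians of 537433, 330511 and 413181 CPM at baseline, day 7 and day 14. The size of this CPM drop depends on the scaling. TMM factors were 1.05 to 1.40 for day 7 mice, against 0.769 to 1.003 for baseline mice. Unscaled sums of the 12 markers overlapped, but these sums do not allow for library size. Day 7 mice held 3120746 to 3426254 counts of them, and baseline mice held 3395223 to 4172702. As a share of library counts, without TMM factors, the groups did not overlap. The highest day 7 share was in mouse 16, with 3426254 of 8637842 counts. The lowest baseline share was in mouse 4, with 3428043 of 8087393 counts. The part of the acinar transcripts in the *Hamp2* result was not tested. In unsorted tissue, fewer cells of a type and less RNA per cell cannot be told apart.

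*Cp* rose at day 7. It encodes ceruloplasmin, the copper-carrying plasma ferroxidase that oxidises iron for loading onto transferrin, and it lies at chr3:19957054-20009145 on the plus strand. *Hps3* overlaps it on the other strand, and whether strand was used in counting is not given in the sources used here. *Cp* levels were 21.01, 27.4 and 33.7 CPM at baseline (lowest, median and highest), 32.3, 42.7 and 48.4 CPM at day 7 and 32.1, 37.4 and 47.0 CPM at day 14. Day 7 mouse 16 and day 14 mouse 22 fell within the baseline range, and the other 7 and 6 mice lay above it.

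The log2 fold change of *Cp* was 0.63 at day 7 (SE 0.093, adjusted p = 3.15e-05 in edgeR), a fold of 1.54 with a 95% interval of 1.35 to 1.76. At day 14 it was 0.47 (SE 0.096, adjusted p = 0.0074), a fold of 1.38 with an interval of 1.21 to 1.59, which passed the p-value limit but not the fold limit. Since the day 7 fold was close to the limit, leaving out baseline mouse 1 (0.57) or baseline mouse 8 (0.58) ended that call through the fold alone, with adjusted p-values of 0.00012 and 0.000143. Without day 14 mice 19 and 21 the day 14 change was 0.39 (adjusted p = 0.0766), and *Cp* in mouse 19 was the highest of that group. Day 14 did not differ detectably from day 7 (-0.16, SE 0.093, adjusted p = 0.464). *Cp* was also higher in each sex at day 7, by 0.70 in females (adjusted p = 0.00274) and 0.54 in males (adjusted p = 0.0117, under the fold limit), and the sexes did not differ detectably in this (difference -0.16, adjusted p = 0.952).

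The genes closest to *Cp* in pattern were *Sparcl1* (a matricellular protein; r = 0.90), *Dpt* (dermatopontin, of the fibroblast markers; r = 0.89) and *Mir1949* (a microRNA gene; r = 0.88), and 0.75, 0.64 and 0.62 with group means removed. Within the set described here, r with *Cp* was 0.40 for *Hp* and 0.41 for *Steap4*. With group means removed these were 0.77 and 0.53, against -0.07, -0.10 and -0.13 for *Mt1*, *Mt2* and *Hamp2*. Of 9 fibroblast markers 8 were called as higher at day 7 and 3 at day 14, with medians of 0.88 and 0.46 on the log2 scale and summed levels of 428, 842 and 600.0 CPM by time point (medians); without mice 19 and 21, 2 were called at day 14. Of 10 macrophage markers 8 were called as higher at day 7 and 0 at day 14 (2 had an unadjusted p under 0.05 in edgeR). The part of these cell types in the *Cp* result was not tested.

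*Steap4*, which encodes a metalloreductase that reduces iron and copper and is known from adipose tissue, did not differ detectably between time points. Its levels were 4.14, 7.01 and 11.1 CPM at baseline, 4.67, 7.01 and 14.6 CPM at day 7 and 4.24, 7.02 and 11.9 CPM at day 14 (lowest, median and highest). The medians were almost the same and the ranges overlapped throughout. The log2 fold change was 0.22 at day 7 (95% interval -0.31 to 0.76, adjusted p = 0.579 in edgeR) and -0.02 at day 14 (-0.59 to 0.54, adjusted p = 0.988). Without mice 19 and 21 the day 14 value was -0.25 (adjusted p = 0.818). Total count scaling, which raised the median of all genes at day 7 by 0.45, gave 0.69 for *Steap4* (adjusted p = 0.0441), or 0.22 relative to the median of all genes.

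The metallothioneins were the most abundant of the 9 genes and varied widely between mice of a group. *Mt1* lies at chr8:94179082-94180327 and *Mt2* at chr8:94172664-94173568, both on the plus strand and 5513 bases from end to start. *Mt1* levels were 134, 291 and 407 CPM at baseline (lowest, median and highest), 93.7, 236 and 502 CPM at day 7 and 280, 378 and 421 CPM at day 14. *Mt2* levels were 26.2, 71.0 and 123 CPM at baseline, 20.1, 75.0 and 136 CPM at day 7 and 50.3, 103 and 114 CPM at day 14. The day 7 mice spanned the whole baseline range and passed it at both ends, while no day 14 mouse was below it. The highest baseline level was passed by 3 of the 7 day 14 mice for *Mt1* and by 0 for *Mt2*.

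The log2 fold change of *Mt1* was -0.22 at day 7 (95% interval -0.82 to 0.37, adjusted p = 0.627 in edgeR) and 0.32 at day 14 (-0.30 to 0.93, adjusted p = 0.717). For *Mt2* it was -0.01 at day 7 (-0.70 to 0.67, adjusted p = 0.986) and 0.35 at day 14 (-0.36 to 1.06, adjusted p = 0.73). Without mice 19 and 21 the day 14 values were 0.23 for *Mt1* and 0.20 for *Mt2* (adjusted p = 0.853 and 0.896). These intervals leave room for changes of 1.5-fold in at least one direction in each case. Total count scaling turned both day 7 values positive (0.22 and 0.43), and relative to the median of all genes under that scaling they were -0.26 and -0.05. The SD within groups was 0.65 for *Mt1* and 0.78 for *Mt2* on the log2 scale, above that of 94.1% and 96.3% of the genes tested, whose median was 0.22.

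By point estimate males had more of both transcripts than females. Over all time points the log2 difference was 0.53 for *Mt1* (SE 0.24, adjusted p = 0.513 in edgeR) and 0.69 for *Mt2* (SE 0.27, adjusted p = 0.424). Neither was called, and 0.23% of all genes were. None of the 6 tested genes was called between the sexes by edgeR; *Mt1* and *Mt2* were the 2 with an unadjusted p under 0.05, a level that 9% of all genes passed.

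*Mt1* and *Mt2* rose and fell together from mouse to mouse. Over the 23 mice r was 0.96 and Spearman's rho 0.92 (permutation p = 1e-05 for both, the smallest that 100000 permutations can give, adjusted p = 0.00016). Within the groups r was 0.96 (baseline), 0.98 (day 7) and 0.95 (day 14; exact permutation, adjusted p = 0.00147, 0.00146 and 0.00476). Without the 2 mice farthest from the median *Mt1* level it was 0.95 overall. The ratio of *Mt1* to *Mt2* counts stayed between 2.83 and 5.56. After its partner, the gene closest to each was *Ddt*, a tautomerase (r = 0.81 with *Mt1* and 0.76 with *Mt2*); next came *Hsp90ab1*, a chaperone, for *Mt1* (0.75) and *Tnks1bp1*, a tankyrase-binding protein, for *Mt2* (0.74).

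**Figure D4:**
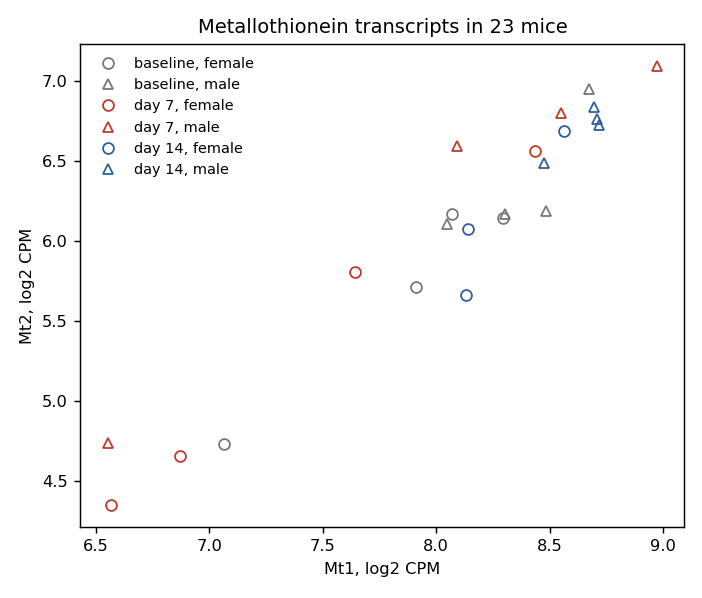
*Mt2* against *Mt1* in 23 mice, both in log2 CPM with a prior count of 2, with time point by colour and sex by symbol. The points follow 1 line (r = 0.96), the day 7 mice reach both its ends, and the day 14 mice sit in its middle and upper part.

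Promoter windows of this pair are shown because the transcripts moved together and metal response elements, bound by the zinc-sensing factor MTF1, are the known control of both genes. Capitals mark the core letters, TGCACNC or TGCGCNC with N for any base, searched on both strands. These forms cannot overlap each other at the same position. The core was found 3 times in *Mt1* and 4 times in *Mt2*, and the matches before the start are shown; the others begin at bases 3 and 21 of *Mt1* and base 5 of *Mt2*, counted from the start. The *Mt1* window is chr8:94179058-94179080 and the *Mt2* windows are chr8:94172387-94172409, chr8:94172482-94172504 and chr8:94172560-94172582, all on the plus strand of GRCm38.p6 from RefSeq.
Mt1, 23 bases before the start: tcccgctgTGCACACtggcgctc
Mt2, 223 bases before the start: atcgcctcTGCACCCggcccctc
Mt2, 128 bases before the start: agacccttTGCGCTCagctcctt
Mt2, 50 bases before the start, match on the minus strand: gggagggcGTGTGCAggctctgt
Starts are those of RefSeq, with 1 entry for *Mt1* and 1 for *Mt2*. Distances hold for these starts only, and other starts were not searched. The core occurs in 25.7% of 32851 mouse promoters in RefSeq (250 bases before to 50 after the start), so short letters alone do not set these genes apart. Rarer was a glucocorticoid response element, found in 0.475% of promoters and in *Mt1* at chr8:94178987-94179015, 94 bases before the start.
Mt1: cactatagGGACATGATGTTCcacacgtc
*Mt2* had no match to these letters in its window. *Mt3* had 0 to 2 counts in every mouse.

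*Hp*, haptoglobin, which binds free haemoglobin, spread more than nearly all genes. It had 0, 21.5 and 75 counts at baseline (lowest, median and highest), 1, 12 and 157 at day 7 and 1, 6 and 124 at day 14. Its SD within groups was 1.91 on the log2 scale, above that of 99.8% of the genes tested. This rank was not matched for level, and *Hp* was low, with a mean log2 CPM of 0.79. Counting error adds more to the log2 spread at low counts. The log2 fold change was 0.12 at day 7 (95% interval -1.83 to 2.07, adjusted p = 0.948 in edgeR) and 0.12 at day 14 (-1.95 to 2.18, adjusted p = 0.985). Day 14 mouse 19 had the 124 counts and mouse 21 had 43; without them the day 14 value was -2.14 (adjusted p = 0.49).

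*Hp* varied with the adipocyte markers across mice. Against the mean log2 CPM of 10 adipocyte markers r was 0.83 and rho 0.85 (permutation p = 1e-05, the smallest possible, adjusted p = 0.00016). By group r was 0.85 (baseline), 0.79 (day 7) and 0.90 (day 14; exact permutation, adjusted p = 0.0228, 0.0586 and 0.0248), and 0.85 without the 2 mice farthest from the median marker level. *Adipoq*, the adipocyte hormone adiponectin, ranged from 0 to 316 counts; the 10 markers summed to between 1.22 and 86.1 CPM at baseline, between 1.92 and 173 CPM at day 7 and between 1.99 and 83.9 CPM at day 14, and 0 of the 6 that were tested was called at any time (0 with an unadjusted p under 0.05 in edgeR).

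*Steap4* moved with the same markers, with r = 0.74 and rho 0.67 over 23 mice (permutation, adjusted p = 0.00064 and 0.00459). Within groups r was 0.72, 0.74 and 0.80 (exact permutation, adjusted p = 0.0887, 0.0887 and 0.0757), and 0.65 overall without the 2 farthest mice. The genes closest to *Steap4* were *Npr3*, a natriuretic peptide receptor (r = 0.88), *Samhd1*, a nucleotide hydrolase (0.85), and *Fabp4*, the adipocyte fatty acid-binding protein (0.85). Those closest to *Hp* were *Cyp2e1*, a cytochrome P450 of liver and fat (0.91), *Jchain*, the immunoglobulin joining chain (0.90), and *Hebp1*, a haem-binding protein (0.86). Lymphocyte markers peaked in the same mouse of each group as the adipocyte markers. Their sums were 50.9 CPM in baseline mouse 5, 89.1 CPM in day 7 mouse 10 and 56.5 CPM in day 14 mouse 21. The group medians of these sums were 2.80, 3.88 and 2.76 CPM. What part adipose tissue or lymphocytes in the sample had in these levels was not tested.

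**Figure D5:**
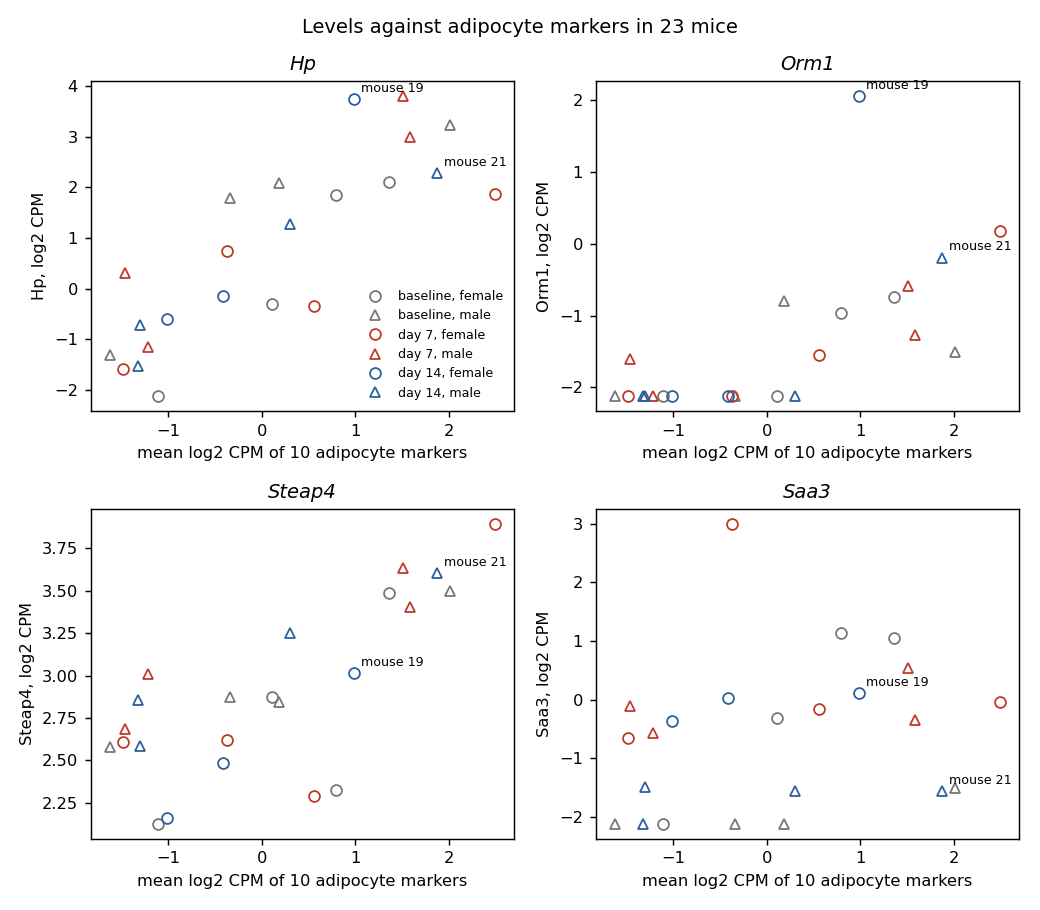
Levels of *Hp*, *Orm1*, *Steap4* and *Saa3* (log2 CPM, prior count of 2) against the mean log2 CPM of 10 adipocyte markers in 23 mice, with time point by colour and sex by symbol. *Hp* (r = 0.83) and *Steap4* (r = 0.74) rise with the markers, *Orm1* is near its floor except in mice with many marker transcripts and in day 14 mouse 19, and *Saa3* shows little relation (r = 0.25).

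*Orm1*, which encodes the plasma carrier orosomucoid, was close to absent. It had at most 3 counts in a baseline mouse, 12 in a day 7 mouse and 37 in a day 14 mouse, and 12 of the 23 mice had none, which allows up to 3 counts. The 37 and 6 counts of day 14 were in mice 19 and 21, and the other 5 mice of that group had 0. *Orm1* rose with *Hp* over the mice (r = 0.71, permutation, adjusted p = 0.00032) and with the adipocyte markers (r = 0.66, permutation, adjusted p = 0.00146), although within groups only the day 7 relation with the markers passed (r = 0.87, exact permutation, adjusted p = 0.00847). Of its exon stretches 86.2% are unlike any other gene and the rest match *Orm2*, which had 0 to 2 counts. No difference between time points was detectable at this depth (exact permutation tests of log2 CPM, two-sided, adjusted p = 0.929 for day 7 and for day 14 against baseline).

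*Saa3*, the serum amyloid A that macrophages and fat cells make outside the liver, had at least 1 count in every day 7 mouse but not in every other mouse. The day 7 counts were 4, 10, 6 and 75 in females and 7, 14, 6 and 4 in males. At baseline they were 0, 4, 14 and 15 in females and 1, 0, 0 and 0 in males, and at day 14 they were 7, 5 and 8 in females and 1, 0, 1 and 1 in males. Among males, the day 7 mice all lay above the baseline and day 14 mice; among females the groups overlapped. Day 7 males were above both other groups of males in 1.88% of the 12933 genes tested by sex and time.

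The mean log2 CPM of *Saa3* was higher at day 7 than at baseline by 1.22 (exact permutation p = 0.083, adjusted p = 0.373 over 9 tests, higher than every baseline mouse in 1 of 8) and lower at day 14 than at day 7 by point estimate (-1.21, exact permutation p = 0.0261, adjusted p = 0.235). DESeq2, which keeps genes of low count, gave 2.07 at day 7 (adjusted p = 0.0332), and without day 7 mouse 12, which held the 75 counts, 1.34 (adjusted p = 0.213). In the fit of 6 groups, whose filter *Saa3* passed, the day 7 change was 1.08 in females and 3.84 in males (adjusted p = 0.46 and 0.0965 in edgeR), and the difference between the sexes in that change was 2.76 (SE 1.67, adjusted p = 0.947). Males had less *Saa3* than females at each time by point estimate, with -4.43 at baseline (adjusted p = 0.431 in edgeR), -1.67 at day 7 (adjusted p = 0.771) and -2.89 at day 14 (adjusted p = 0.724). The day 7 estimate includes female mouse 12 with its 75 counts, and it was not refitted without that mouse. The other day 7 females had 0.405, 0.746 and 0.668 CPM, within the 0.440 to 1.23 CPM of day 7 males except for the first.

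*Lcn2*, lipocalin 2, a siderophore-binding protein of neutrophils and injured epithelia, was at the edge of detection in every group. It had at most 7 counts in a baseline mouse, 10 in a day 7 mouse and 5 in a day 14 mouse, with medians of 1.5, 3.5 and 2. The differences in mean log2 CPM were 0.16 at day 7 and -0.17 at day 14 (exact permutation, adjusted p = 0.929 for both). Of the 8 neutrophil markers that the files held none passed the filter. Together they had 184 counts (22.7 CPM) in baseline mouse 4, at most 2.11 CPM in the other baseline mice, 5.49 CPM in a day 7 mouse and 1.82 CPM in a day 14 mouse. *Lcn2* and *Saa3* showed little relation over the mice (r = 0.34, permutation, adjusted p = 0.173).

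The promoter table held 7 of the 9 genes. C/EBP letters (TTGCNNAA, in 10.8% of promoters) were found in *Lcn2*, *Saa3*, *Cp*, *Steap4* and *Mt2*, and NF-kB letters (in 5.56%) in *Steap4*. STAT half-site pairs (TTCNNNGAA, in 8.3% of promoters) were found in *Steap4* and *Hamp2*. Letters that are common in promoters are given here as a description of the windows.

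Other genes of these pathways, from lists drawn up by pathway, were called at day 7 in small numbers, and more passed the p-value limit with a smaller fold. Over all genes tested at day 7, 18.6% had an adjusted p of at most 0.05 at any fold and 32.2% an unadjusted p under 0.05 in edgeR. Of 7 tested genes among 29 other positive acute-phase genes, 2 rose at day 7, *Lbp* (lipopolysaccharide-binding protein, log2 fold change 1.20, SE 0.27, adjusted p = 0.00264 in edgeR) and *Cd14* (its co-receptor, 0.81, SE 0.27, adjusted p = 0.0382), with a list median of 0.65 against 0.02 over all genes tested; the other 22 were not in the files or did not pass the filter. None was called at day 14 (1 had an unadjusted p under 0.05 in edgeR; median -0.11, and -0.44 without mice 19 and 21). Of 12 genes listed as negative acute-phase proteins or plasma carriers, 7 were tested. Of these, *Gc* (vitamin D-binding protein, 1.85, adjusted p = 0.0128 in edgeR) and *Ambp* (bikunin precursor, 1.07, adjusted p = 0.00012) rose at day 7. At day 14 *Ambp* (1.24, adjusted p = 0.000248) and *Alb* (5.35, adjusted p = 0.0417) were called. Without mice 19 and 21 *Ambp* was 0.98 (adjusted p = 0.000518) and *Alb* 0.15 (adjusted p = 0.905).

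Of 15 tested genes of IL-6 and STAT3 signalling, 2 rose at day 7, the transcription factors *Cebpd* (0.69, SE 0.16, adjusted p = 0.00273) and *Junb* (0.70, SE 0.24, adjusted p = 0.0392); the list median was 0.13, 6 of the 15 passed the adjusted p at any fold and 8 had an unadjusted p under 0.05. *Il6* itself had 0 to 2 counts in every mouse. Of 18 tested genes of IL-1, TNF and NF-kB signalling, the receptors *Il1r1* (0.75, adjusted p = 0.000419) and *Tlr4* (0.89, adjusted p = 0.00848) rose at day 7, with a list median of 0.24, and 4 of the 18 passed the adjusted p at any fold. None of either list was called at day 14, where 2 and 5 had an unadjusted p under 0.05 in edgeR.

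Among 22 tested genes of iron handling, *Steap2*, a reductase related to *Steap4*, rose at day 7 (1.03, SE 0.23, adjusted p = 0.00261) and *Pcbp2*, an RNA-binding protein that also chaperones iron, fell (-0.63, SE 0.075, adjusted p = 1.57e-06). Of 21 zinc genes *Slc30a2*, a zinc exporter of secretory vesicles, fell (-0.72, SE 0.20, adjusted p = 0.0126). *Cp* was the single call among 10 copper genes, and *Fkbp5*, a glucocorticoid-induced co-chaperone, the single call among 10 glucocorticoid-responsive genes (0.98, SE 0.31, adjusted p = 0.0331). The list medians at day 7 were 0.08 for iron, -0.02 for zinc, 0.13 for copper and 0.01 for glucocorticoid response, and at any fold 5, 2, 3 and 2 of them passed the adjusted p, with 8, 7, 7 and 3 at an unadjusted p under 0.05 in edgeR. None of these genes was called at day 14 (6, 1, 2 and 0 with an unadjusted p under 0.05 in edgeR).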

How the data were processed

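RNA of the pancreatic head was depleted of ribosomal RNA, made into stranded libraries and sequenced as paired reads on a NextSeq 500. The deposited values are raw counts of fragments per gene symbol, which the authors made, per the submitters' processing notes and the methods, with FastQC, Trim Galore, cutadapt, STAR 2.5.2a (mm10) and featureCounts; the annotation and strand setting used for counting are not given in the sources used here. No values were normalised before deposit. Mouse 20 was not analysed here.

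Counts were scaled with TMM and tested with edgeR 4.0.16 (R 4.3.3; filterByExpr, estimateDisp, glmQLFit with robust fitting, glmQLFTest, two-sided) in 1 fit of 23 mice and 3 time groups with sex as covariate (12195 genes), and in 1 fit of 6 groups of sex and time (12933 genes). The Benjamini-Hochberg adjustment ran over all genes tested. Calls needed an adjusted p no higher than 0.05 and a change no smaller than 1.5-fold (interactions: p alone). Standard errors were derived from each log2 fold change and its F statistic and restate the test. Log2 CPM used a prior count of 2. Genes below the filter were compared with exact permutation tests (scipy 1.17.1) of log2 CPM, and 8 relations, each over all mice and within the 3 groups, with permutation tests adjusted over 32 values. The procedure was tested on simulated data. DESeq2 1.42.0, other scalings and filters, each sex alone and leaving out each mouse were tried as alternatives. The 77 pairs of mice within groups all differed by more than sampling noise. Each detection floor of 3 counts covers counting error only.

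The genes and all lists were chosen with earlier results of these data known. All 9 genes are named; from each list of related genes, those called over time are named, at most the 4 with the largest change; and for likeness, the 3 genes with the highest Pearson r. Gene positions and exon lengths come from GENCODE vM21 (GRCm38), and promoter sequences from RefSeq (GRCm38.p6).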

Additional observations from a re-analysis of the deposited data

Results flagged for a closer look

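Within-group gaps were examined with Dixon's ratio, the gap of the highest or lowest mouse to its nearest neighbour divided by the whole range of the group. Of 33 sets of values tested, 3 passed the 95% limit, and chance passes about 1 in 20. The lowest baseline *Mt1* value, in mouse 1, had a ratio of 0.528 (134 CPM against a group median of 291 CPM). The highest day 7 *Saa3* value, in mouse 12, had a ratio of 0.673 (75 counts against a median of 6.5). The lowest day 7 *Cp* value, in mouse 16, had a ratio of 0.583 (32.3 CPM against a median of 42.7 CPM).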

How the results depend on the processing

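Calls of the 9 genes depended mostly on scaling and on the fold limit. Only 6 of the 9 passed the filter of the main fit. *Lcn2*, *Saa3* and *Orm1* could thus be called only in settings that kept them. Total count scaling gave 3727 genes called at day 7, 449 at day 14 and 477 between day 14 and day 7, and moved the median of all genes by 0.45, 0.21 and -0.24; the share of calls that were higher went from 74.4% to 99.4%, from 88.5% to 98.2% and from 54.3% to 2.94%. Under it *Mt1* and *Mt2* at day 7 were 0.22 and 0.43 and *Steap4* at day 14 was 0.18, 1 of the 9 genes was called at day 14 (*Cp*, 0.68) and 0 between day 14 and day 7 (edgeR; *Hamp2* had an adjusted p of 0.00558). Scaling without the 20 most abundant genes gave 0.064 for *Mt2* at day 7, and 85.7% and 29.5% of calls higher at day 7 and between day 14 and day 7. A minimum of 10 counts in every mouse gave 348 genes at day 7, 30 between day 14 and day 7 and 16 between the sexes, and 0.0101 for *Mt2* at day 7. Without the fold limit 2264, 192 and 157 genes were called, and 1 of the 9 at day 14. *Hp* between day 14 and day 7 was 0.12 in DESeq2, 0.0014 with its size factors, 0.017 without a filter, 0.51 with adipocyte markers as covariate (71 genes called) and 1.70 in females. *Hp* at day 14 was -0.039 in only the mice compared, -0.014 without covariate, -1.20 in males and -2.14 without mice 19 and 21 (chosen after seeing the data; 62 genes called). *Hp* at day 7 was -0.15 with adipocyte markers as covariate and -0.49 in females. *Mt2* at day 7 was 0.025 without covariate and 0.13 in males, and *Steap4* at day 14 was 0.012 without covariate, 0.073 with adipocyte markers and 0.12 in males. Females alone gave 234, 31 and 5 genes called and 0 of the 9 between day 14 and day 7 (*Hamp2*, p of 0.61 after adjustment); males alone gave 12 genes at day 14 and 1 of the 9 at day 7 (*Cp* at 0.53 fell below the fold limit). Fewer mice enter the fits of 1 sex; the cause of the other changes was not tested. Leaving out each mouse in turn gave 1 to 2 of the 9 at day 7, 0 at day 14, 1 between day 14 and day 7, 0 between the sexes and 0 to 1 (0 at day 14) for the interaction, and 509 to 815, 65 to 104, 22 to 57 and 25 to 33 genes called in the first 4 comparisons. Changes that crossed 0 in these fits ran from -0.21 to 0.12 for *Mt2* at day 7, -0.013 to 0.39 for *Steap4* at day 7 and -0.15 to 0.13 at day 14, and for *Hp* from -0.56 to 0.59 at day 7, -1.46 to 0.50 at day 14 and -1.48 to 0.60 between them; *Hp* reached its lowest day 14 values without mouse 19 and its lowest day 7 value without mouse 14. No paired analysis was possible because mouse numbers are unique and groups share none. The *Saa3* difference between day 14 and baseline, 0.01 in mean log2 CPM, was -0.43 in edgeR without a filter and -0.63 in females, and that at day 7 was 2.07 in DESeq2 and 1.34 there without mouse 12. Low counts limit *Lcn2*, *Saa3* and *Orm1*.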
